A study of Ovis aries with 16 samples.

Results

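The small RNAs described here are the rows of a sheep miRNA count table that carry a piRNA name, chosen as every row whose name starts with piR. They made up 30 of the 1105 names, and the other 1075 were miRNA names. Adolescent sheep gave serum, from which EVs (extracellular vesicles, particles with a membrane that cells shed) were also taken on a size-exclusion column, and small RNAs of both were sequenced. The sheep had hearts with 2 normal ventricles and received a Fontan operation in a single stage, which sends venous blood of the body straight to the lungs with no ventricle in between. There were 5 libraries of serum and 5 of EVs before surgery, with the letters A to E, and 3 of serum and 3 of EVs after it, with the letters D, E and F. The later samples date from day 6 for letter D and from day 7 for letters E and F. The libraries before surgery are the study's controls, so no group of sheep without surgery was compared at the later time. The letters stand in the sample titles, and the labels do not say whether a letter is 1 animal.

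PIWI-interacting RNAs (piRNAs) are small RNAs slightly longer than miRNAs that guide PIWI proteins to silence transposons, and they are best known from the germ line. They are made from long single-stranded precursors without Dicer, and their 3' ends carry a methyl group. In blood and other body fluids, reads assigned to piRNA database entries are common, and many entries overlap fragments of tRNAs, ribosomal RNAs, Y RNAs and other abundant RNAs. The names here are human entries that were not checked against sheep sequence. A piR name below therefore labels a row of counts and does not show that a sheep piRNA was present, and no target or function is known here for any single row.

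Library totals ran from 65537 to 639207 counts. The share of a library's counts held by the 30 piR rows together ranged from 1.08% to 8.70%. In serum before surgery it was 5.62% in A, 1.68% in B, 3.22% in C, 2.58% in D and 8.70% in E, a mean of 4.36% ± 2.83 (SD, n = 5). In serum after surgery it was 1.61% in D, 5.51% in E and 3.53% in F, a mean of 3.55% ± 1.95 (n = 3). The serum libraries thus differed by several fold within each time, and the ranges before and after surgery overlapped.

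In EVs before surgery the piR share was 2.35% in A, 1.78% in B, 1.40% in C, 2.29% in D and 1.89% in E, a mean of 1.94% ± 0.389 (n = 5). In EVs after surgery it was 3.04% in D, 1.08% in E and 2.84% in F, a mean of 2.32% ± 1.08 (n = 3). The EV shares before surgery were closer together than the serum shares, and every pair of groups overlapped. The Wilson 95% intervals of these shares had half-widths of up to 0.141 percentage points and cover counting error only. A lower share can reflect fewer piR-named molecules or more of other RNAs, and these cannot be told apart in such libraries.

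**Figure D1:**
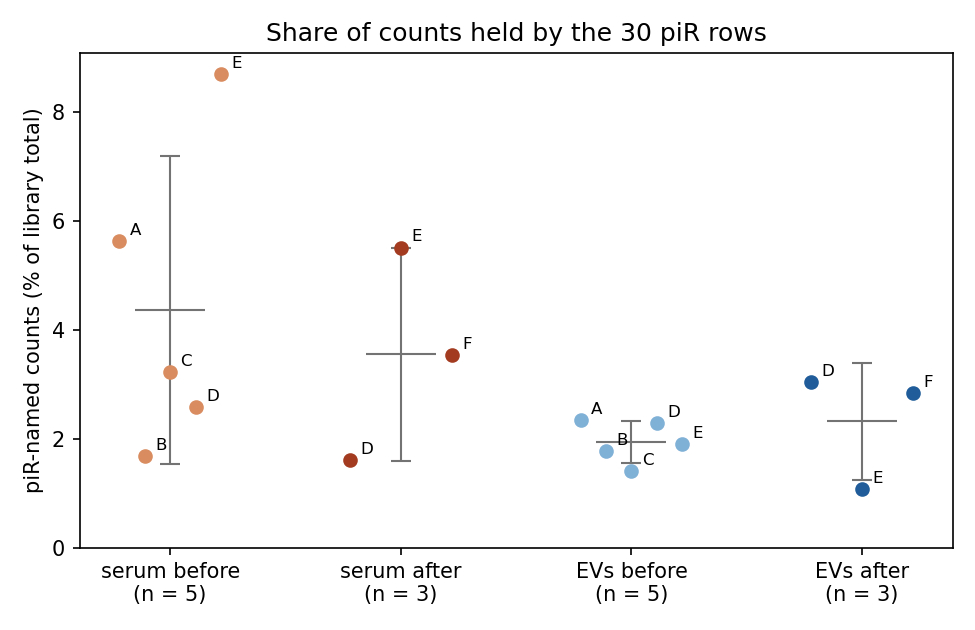
Each point is the share of 1 library's counts held by the 30 piR rows (y axis, percent of the library total), labelled with its letter. Grey bars show the mean and SD of each group. The 5 EV libraries before surgery lie between 1.40% and 2.35%, and serum of letters A and E reaches 5.62% and 8.70% before surgery.

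Other names can also match fragments of abundant RNAs. Of 21 such miRNA names in a list of GC-rich and similar entries, 16 were in the table. In serum their summed share was lowest in C before surgery (0.601%), where the piR share was 3.22%. It was highest in D after surgery (36.1%), where the piR share was 1.61%. In serum E before surgery it was 3.48%, where the piR share was 8.70%. In EVs it ran from 1.64% in C before surgery to 19.5% in D after surgery, where the piR shares were 1.40% and 3.04%. Red blood cell miRNAs (8 names listed, including miR-486-5p and miR-451a) took 20.9% to 66.8% of serum counts before surgery, 24.0% to 50.9% after, 15.8% to 56.5% of EV counts before and 20.8% to 28.8% after. Their part in the piR results was not tested.

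A few rows carried most of the piR counts. The row piR_019914 alone held 35.5% of all piR counts over the 16 libraries. It was followed by piR_001312 (10.2%), piR_004987 (9.52%), piR_015026 (8.43%), piR_004153 (8.11%), piR_019825 (5.36%), piR_018570 (4.32%) and piR_019675 (3.96%). At the other end, piR_016165 had 45 counts in all, and piR_018573 had 66.

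The rows fell apart by how often they were listed at 0. Above 0 in all 16 libraries were 13 rows (43.3%), against 362 of the 1075 miRNA names (33.7%). At 0 in all of EVs A, B and E before surgery and EVs E and F after surgery were 16 rows (53.3%), against 276 miRNA names (25.7%). These 5 EV libraries share nearly all of their zeros across the whole table, so a 0 in them means listed at 0 and carries no limit of detection. The last row, piR_016165, was above 0 in EVs A and E before surgery, with 39 and 6 counts, and listed at 0 in the other 14 libraries.

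The zeros in these 5 EV libraries took in rows that were not rare elsewhere. Of the 16 rows, 11 were above 0 in every serum library. The row piR_020499 had 34 to 625 counts in serum and 83, 119 and 168 counts in EVs C before, D before and D after surgery. At its lowest share in those 3 EV libraries, the smallest of the 5 libraries with zeros (65537 counts) would hold 9.58 counts of it. Reckoned the same way, piR_000794 would have 8.43 and piR_020496 6.35 counts, and the other 13 rows 0 to 5.08, with 7 of them at 0. The row piR_000794 had 15 to 223 counts in serum and 61 to 116 in the same 3 EV libraries, and piR_020496 had 23 to 219 and 52 to 73. Serum D before surgery, with a total of 76988 counts close to that of the smallest EV libraries, listed 25 of the 30 rows above 0, with counts down to 4. Serum and EV libraries differ in make-up, and the part of depth or of any other cause in these zeros was not tested.

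Zeros in serum also came in blocks. The rows piR_001318 and piR_020548 were above 0 in serum B before and in serum E and F after surgery, and at 0 in the other 5 serum libraries. The row piR_001318 had 11, 39 and 43 counts in those 3 libraries, and piR_020548 had 16, 11 and 22. The row piR_020541 showed the reverse, with 0 in these 3 libraries and 9 to 88 counts in the other 5. The same 3 libraries listed 48.8% to 49.7% of the miRNA names at 0, against 20.8% to 32.2% in the other 5. The split thus falls unevenly before and after surgery, and its part in the serum comparison was not tested.

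**Figure D2:**
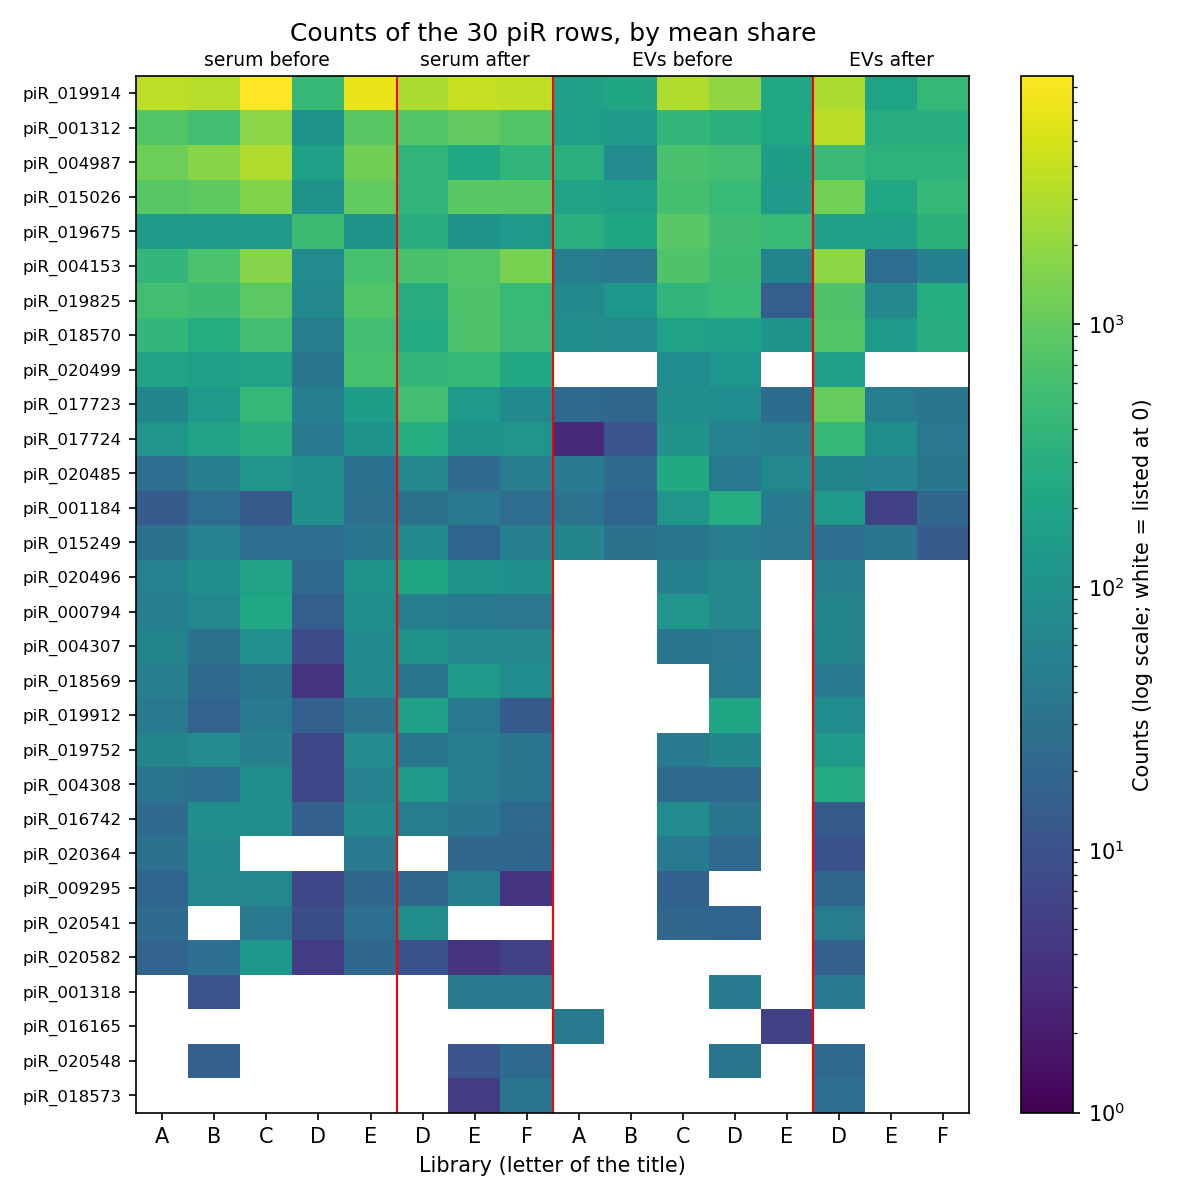
Counts of the 30 piR rows (y axis, ordered by mean share) in the 16 libraries (x axis, letters within each group), on a log colour scale with white for rows listed at 0. The same 16 rows are white in EVs A, B and E before and EVs E and F after surgery.

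The make-up of the piR counts differed between serum and most EV libraries. The row piR_019914 was the largest piR row in 7 of 8 serum libraries. It held 40.9%, 34.3%, 42.9%, 22.3% and 49.6% of the piR counts in serum A to E before surgery, and 34.9%, 40.4% and 39.4% in serum D to F after surgery. In EVs it held 11.4%, 18.0%, 37.5%, 30.7% and 13.7% in A to E before, and 19.8%, 11.2% and 16.2% in D to F after surgery. EVs C and D before surgery were thus in the range of serum, and the other 6 EV libraries lay below every serum library. For shares within the piR counts the half-width of the Wilson 95% interval was at most 2.34 percentage points.

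The row piR_019675 showed the opposite order. It held 20.04%, 18.6%, 10.9%, 8.68% and 27.9% of the piR counts in EVs A to E before surgery, and 1.24%, 10.7% and 13.0% in EVs D to F after. In serum it held 1.67%, 1.65%, 0.670% and 0.804% in A, B, C and E before surgery, and 3.58%, 1.06% and 1.47% in D to F after. Serum D before surgery stood apart with 25.9%, and piR_019675 was its largest piR row.

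Serum D before surgery also differed from the other serum libraries in the whole table. It had the lowest serum total and the lowest serum share of red blood cell miRNAs (20.9%). Its TMM factor, which edgeR uses to put libraries on a common scale, was 2.71, against 0.278 to 0.758 in the other serum libraries and 0.717 to 2.94 in EVs. Without it the mean piR share of serum before surgery was 4.81%.

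**Figure D3:**
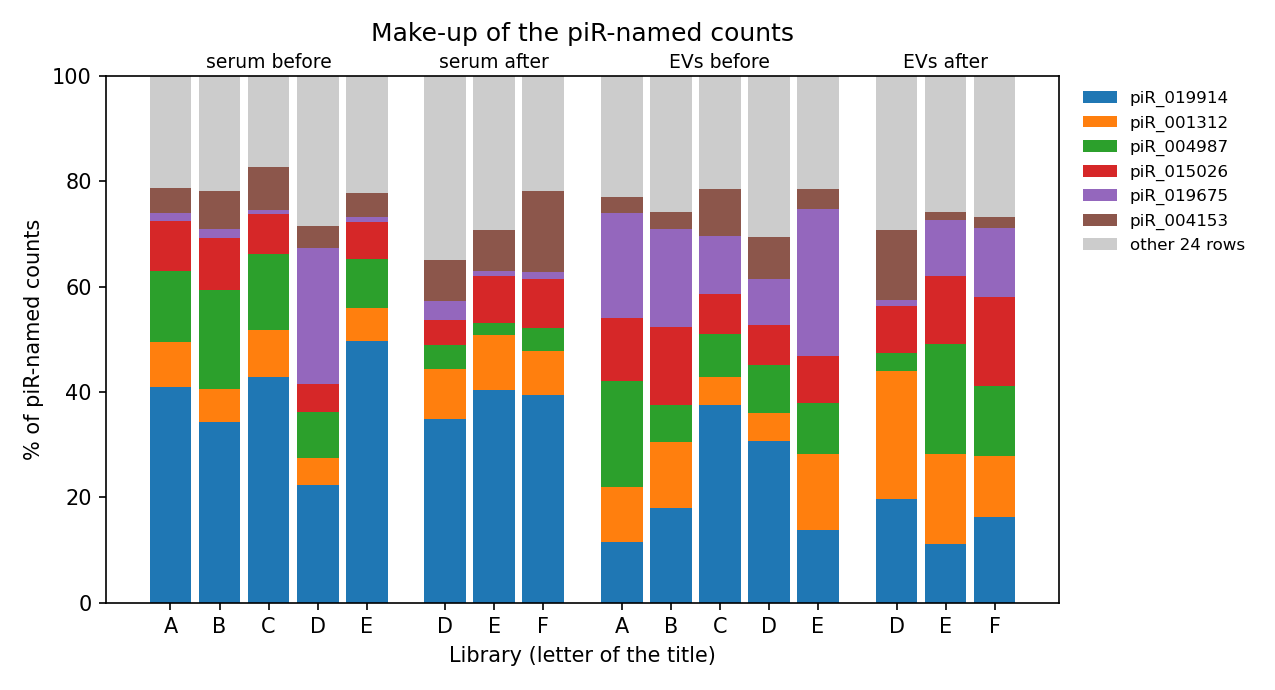
Each bar is 1 library (x axis, letters within each group) and splits its piR counts into the 6 most abundant rows and the other 24 (y axis, percent of piR-named counts). The row piR_019914 takes 22.3% to 49.6% in serum and 11.2% to 37.5% in EVs, and piR_019675 takes 25.9% in serum D before surgery against 0.670% to 3.58% in the other serum libraries.

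Serum and EVs of the same letter and time were set side by side as log2 ratios of their shares of the library total, where a value below 0 means a smaller share in EVs. For the 30 rows together the ratio before surgery was −1.26 in A, 0.079 in B, −1.20 in C, −0.18 in D and −2.20 in E, a mean of −0.95 ± 0.92 (SD, n = 5), or −1.15 without letter D. After surgery it was 0.92 in D, −2.36 in E and −0.31 in F, a mean of −0.58 ± 1.65 (n = 3). The share was lower in EVs in 6 of the 8 pairs, and letters D and E occur at both times. With TMM factors the ratio was below 0 in 6 of 8 pairs as well, but these were all pairs other than letter D, with 0.80 before and 0.27 after surgery.

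On the same scale the median ratio of the miRNA names was above 0 in every pair but that of letter D before surgery. Over the 362 miRNA names above 0 in all libraries the median ratio before surgery was 1.47, 2.13, 1.20, −0.63 and 1.52 in A to E, and after surgery 0.45, 0.69 and 1.49 in D to F. Over the 13 piR rows above 0 in all libraries it was −0.92, 0.99, −1.20, −0.15 and −1.50 before surgery, and 0.95, −1.65 and 0.55 after. The piR median lay below the miRNA median in 6 of 8 pairs, by 0.94 to 3.02. In both pairs of letter D it lay above, by 0.48 before and 0.50 after surgery.

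Single rows differed in their ratio. The row piR_019914 had log2 ratios of −3.10, −0.85, −1.39, 0.28 and −4.05 in A to E before surgery and 0.097, −4.21 and −1.60 in D to F after. It was lower in EVs in 6 of 8 pairs, the exceptions being both pairs of letter D. The row piR_004153 was lower in the same 6 pairs, from −4.66 in E after surgery to −1.06 in C before, and higher in D, with 0.81 before and 1.68 after.

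A group of 4 rows had higher shares in EVs than in serum in most pairs. The row piR_019675 had log2 ratios of 2.33, 3.58, 2.83, −1.75 and 2.92 in A to E before surgery, and −0.62, 0.98 and 2.83 in D to F after. The row piR_001184 was above 0 in 6 of 8 pairs, piR_020485 in 7 and piR_015249 in 5, with medians over the 8 pairs of 1.83, 1.34 and 0.79. In all 4 rows the ratio of letter D before surgery was below 0, from −2.93 to −0.28, the pair that holds serum D before surgery.

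The sign of these ratios depends on the scale. With TMM factors the number of pairs above 0 was 6 of 8 for piR_019675, 5 for piR_001184, 3 for piR_015249 and 2 for piR_020485. Their medians over the 8 pairs were then 0.75, 0.48, −0.43 and −0.20. The 4 rows were set apart after their values were seen.

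**Figure D4:**
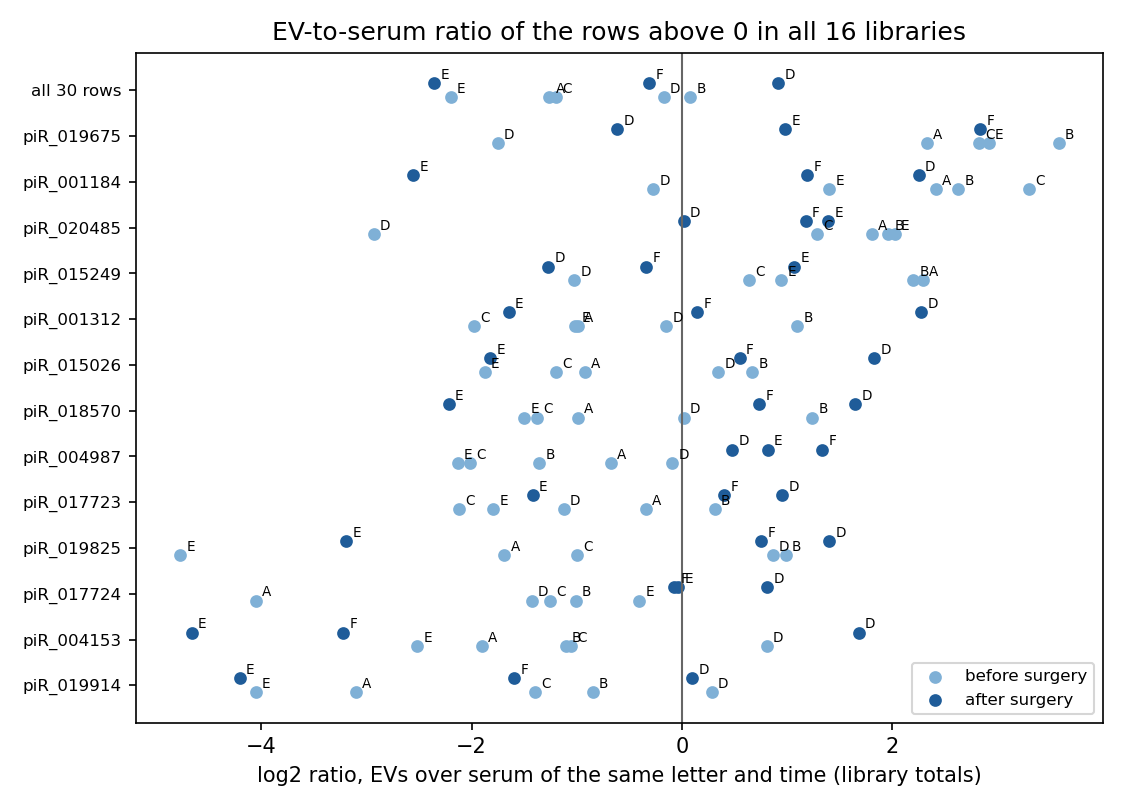
Log2 ratio of the share of counts in EVs over serum of the same letter and time (x axis, library totals) for the 13 rows above 0 in all 16 libraries and for all 30 rows together (y axis). Light points are before and dark points after surgery, labelled with their letter. The row piR_019675 lies above 0 in 6 of 8 pairs and piR_019914 below 0 in 6 of 8.

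Before surgery, 2 piR rows were lower in EVs than in serum past the threshold (edgeR's quasi-likelihood test, Benjamini-Hochberg adjusted p under 0.05 over all names tested). The row piR_017723 had 65, 136, 425, 51 and 158 counts in serum A to E and 22, 20, 87, 84 and 25 in EVs A to E. As shares of the library these were 0.0246% to 0.101% in serum and 0.0153% to 0.0324% in EVs. The ranges overlapped through serum B, the lowest of the serum libraries. Its log2 fold change was −2.53 (SE 0.611, adjusted p = 0.0355, edgeR, n = 5 and 5).

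The row piR_004987 took 0.759%, 0.317%, 0.465%, 0.226% and 0.796% of serum A to E before surgery and 0.476%, 0.124%, 0.115%, 0.212% and 0.181% of EVs A to E. EVs of A lay among the serum values, and the other 4 EV libraries lay below every serum library. The log2 fold change was −2.76 (SE 0.699, adjusted p = 0.0488, edgeR). Both calls were lost with serum C or with EVs A, B, D or E left out, and that of piR_004987 also with serum E left out. With the letter as a replicate block both calls were lost as well. They were also lost under library totals, where the log2 fold changes were −1.18 for piR_004987 and −1.10 for piR_017723 (adjusted p = 0.435 and 0.522, edgeR). The row piR_004987 was past the threshold in 10 of 21 alternatives and piR_017723 in 11.

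These 2 calls stood among 23 called of 768 names (2.99%), and 23 piR rows were tested. At an unadjusted p under 0.05, 16 of the 23 piR rows were lower in EVs, where 56 of 768 names (7.29%) were, and 0 were higher. Under library totals 4 of the 23 were lower, where 1.43% of names were. Of the 23, 10 were at 0 in EVs A, B and E. They passed the filter on low counts through serum, or through serum together with EVs C or D. A difference from EVs A, B and E was thus built into their selection. Those 10 gave 7 of the 16 rows and the 13 rows above 0 in every library gave the other 9. Fitted among the 393 names above 0 in all 10 libraries, 9 of those 13 rows were lower at an unadjusted p under 0.05, where 11.2% of names were. In that fit 0 names passed after adjustment.

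Among the names above 0 in all 10 libraries, the median log2 fold change was −1.99 over the 13 piR rows and 0.11 over all 393 names. Over all 768 names of the wider fit it was 0.35, and 1.04 under library totals. The largest row, piR_019914, had −3.23 (SE 0.909, adjusted p = 0.0917, edgeR), and piR_017724 had −2.55 (SE 0.680, adjusted p = 0.0694). The rows piR_001312 (−2.33), piR_015026 (−2.21), piR_018570 (−2.26) and piR_019825 (−2.30) had adjusted p of 0.113 to 0.202. Above 0 were piR_001184 (0.55, SE 0.683) and piR_019675 (0.54, SE 0.541), with adjusted p of 0.714 and 0.670.

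Leaving out serum D before surgery changed the count of calls. Without it 9 of 23 piR rows were lower in EVs past the threshold, among 89 of 816 names called (10.9%). They were piR_001312, piR_004153, piR_004987, piR_015026, piR_017723, piR_017724, piR_018570, piR_019825 and piR_019914, with log2 fold changes of −3.53 to −2.51 and adjusted p of 0.00864 to 0.0370 (edgeR). With EVs A, B and E as the only EV libraries, 16 of 25 piR rows passed, among 135 of 813 names called (16.6%), and in that fit the rows listed at 0 in these 3 libraries differed by construction. Without serum C before surgery 0 piR rows passed.

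After surgery, no piR row differed between EVs and serum past the threshold (edgeR, 0 of 24 tested, among 0 of 747 names, 0%). At an unadjusted p under 0.05 the row piR_019914 was lower in EVs, which makes 1 of 24 piR rows where 2.81% of names were lower. Without EVs D after surgery it was 13 of 25 rows, where 13.6% of names were lower, and the remaining EV libraries E and F are those that share their zeros. Leaving out that library gave 0 calls after adjustment. DESeq2 called 41 of 747 names with 0 of 24 piR rows, and limma-voom 42 of 747 names with 3 of 24 piR rows. The shares of piR_019914 were 0.561%, 2.22% and 1.39% in serum D to F and 0.600%, 0.121% and 0.460% in EVs D to F. These groups overlapped through letter D. The log2 fold change was −2.49 (SE 0.952, adjusted p = 0.496, edgeR, n = 3 and 3). Of the 24 rows, 11 were at 0 in EVs E and F and passed the filter through serum or EVs D. Among the names above 0 in all 6 libraries, the median was −0.42 over 13 piR rows and −0.036 over all 405 names. Over all 747 names of the wider fit it was 0.30, and 1.50 under library totals.

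The rows with the next smallest p after surgery were all at 0 in EVs E and F. The row piR_020496 had 219, 111 and 96 counts in serum D to F and 52 in EVs D. The row piR_018569 had 33, 150 and 84 in serum and 43 in EVs D, and piR_016742 had 45, 36 and 23 in serum and 14 in EVs D. Their adjusted p were 0.580, 0.640 and 0.640 (edgeR), and no fold is given against EVs in which 2 of 3 libraries are listed at 0.

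In serum, no piR row changed after surgery past the threshold (edgeR, 0 of 26 tested, among 0 of 696 names, 0%). At an unadjusted p under 0.05, 2 of 26 piR rows were lower, where 3.59% of names were, and 0 were higher. Without serum C before surgery 0 were lower, and without serum D before surgery 3 of 26 were, where 4.66% of names were. DESeq2 and limma-voom also called 0 names.

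The row piR_004987 was 1 of these 2. Its share was 0.759%, 0.317%, 0.465%, 0.226% and 0.796% in serum A to E before surgery and 0.0736%, 0.128% and 0.150% in serum D to F after it. Each of the 3 libraries after surgery lay below each of the 5 before it. How many of all names separated in this way was not counted, so this is description only. The mean was 0.513% ± 0.257 (SD, n = 5) before and 0.117% ± 0.0393 (n = 3) after surgery. Letter D went from 0.226% to 0.0736% and letter E from 0.796% to 0.128%. The log2 fold change was −2.07 (SE 0.901, adjusted p = 0.581, edgeR), with −2.53 to −0.94 over the alternatives and an adjusted p of at least 0.113 in each.

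Within the piR counts of serum, piR_004987 also had no overlap between the times. It held 8.75% to 18.8% of the piR counts before surgery and 2.32% to 4.58% after it. These are the same counts in the same libraries, so this is no separate result. How many other rows separated on this measure was not counted. In EVs the groups overlapped, with 0.222% ± 0.148 of counts (n = 5) before and 0.235% ± 0.138 (n = 3) after surgery. Its EV-to-serum log2 ratio was −0.67, −1.36, −2.01, −0.091 and −2.13 in A to E before surgery and 0.48, 0.81 and 1.33 in D to F after. All 5 pairs before surgery were below 0 and all 3 after it above 0 under library totals. With TMM factors the ratios after surgery were −0.17, 0.051 and −0.37, and that of D before surgery was 0.89, so the groups overlapped.

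The other serum row, piR_020582, had 18, 28, 125, 5 and 21 counts in A to E before surgery and 10, 4 and 6 in D to F after it. As a share, each library after surgery lay below each before it, and here too the other names were not counted. The log2 fold change was −2.49 (SE 1.07, adjusted p = 0.581, edgeR), and counts this low limit its precision. The next smallest p belonged to piR_018569 (1.30, SE 0.873) and piR_019912 (1.00, SE 0.690), both with an adjusted p of 0.968. The abundant rows differed less, with −0.34 (SE 0.953) for piR_019914, 0.12 (SE 0.860) for piR_001312 and −0.14 (SE 0.873) for piR_015026. Over the 26 rows, 12 lay above and 14 below 0 (median −0.038, against −0.20 over all names).

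**Figure D5:**
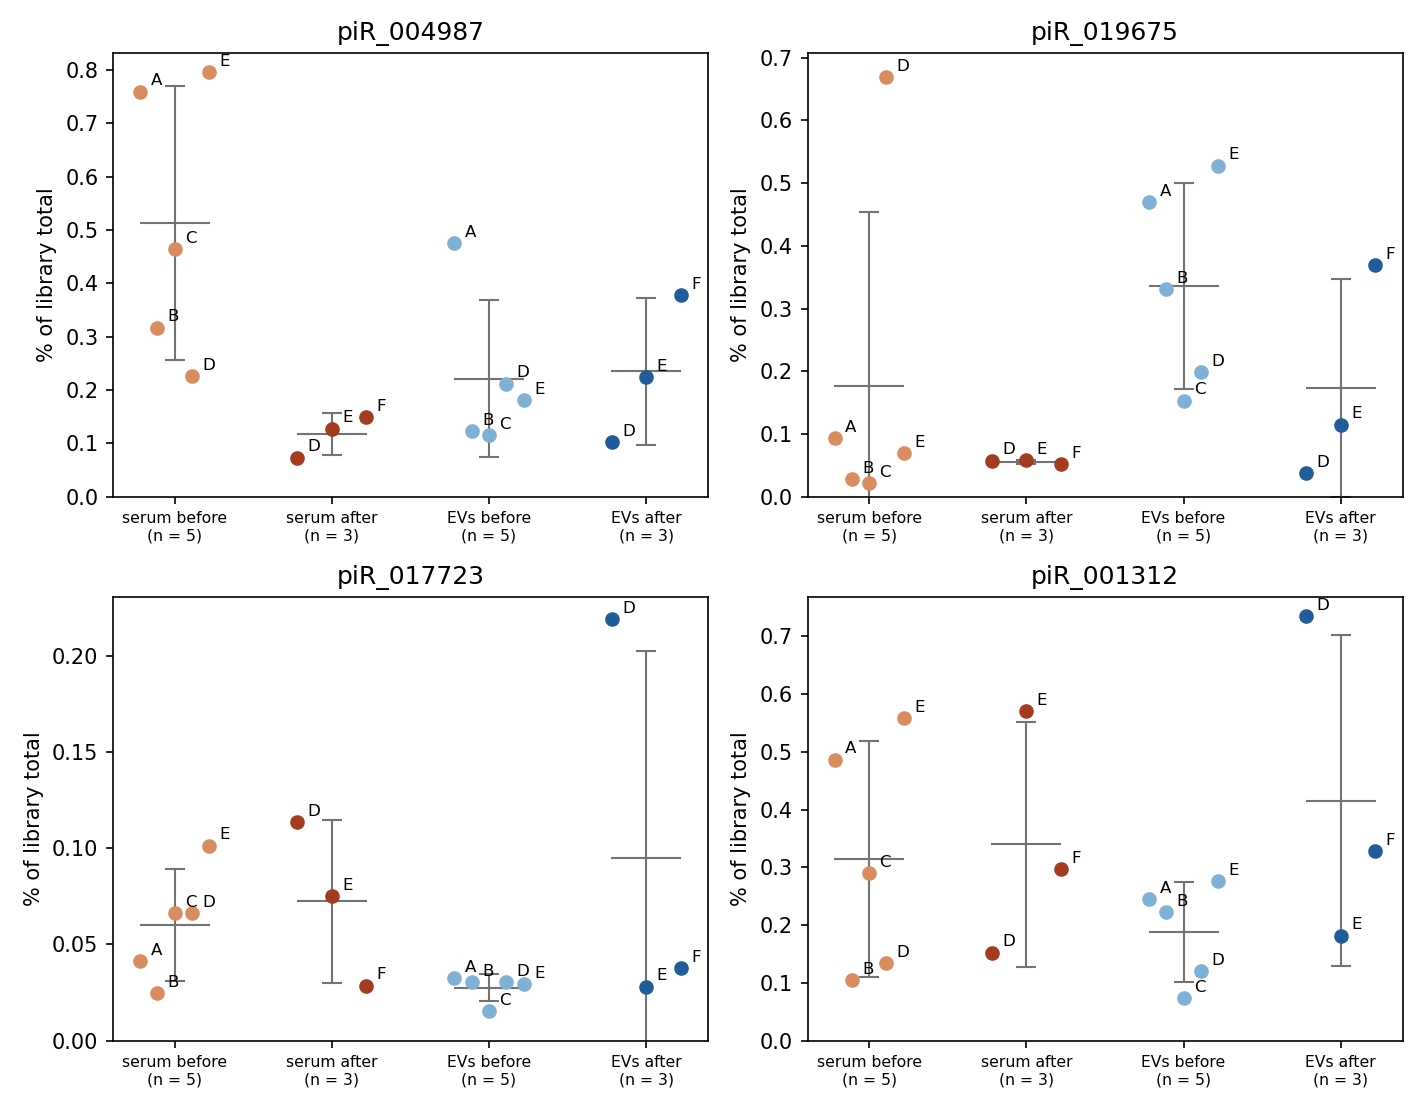
Share of the library total (y axis, percent) of 4 piR rows by group, with each point 1 library labelled with its letter and grey bars for the mean and SD. The 3 serum libraries after surgery lie below the 5 before it for piR_004987, serum D before surgery reaches 0.669% for piR_019675, and EVs D after surgery reach 0.219% for piR_017723 and 0.736% for piR_001312.

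In EVs, no piR row changed after surgery past the threshold (edgeR, 0 of 16 tested, among 0 of 856 names, 0%). At an unadjusted p under 0.05, 4 of 16 piR rows were higher, where 1.4% of names were, and 0 were lower. DESeq2 and limma-voom called 0 names. The 4 rows ranked within the 5 smallest p of all names, and each had an adjusted p of 0.999. Without EVs D after surgery 0 of 16 piR rows were higher at an unadjusted p under 0.05, where 8 of 852 names were. In that fit 1 of 16 piR rows was lower, where 3.40% of names were. The median log2 fold change was −0.29 over the piR rows and −0.15 over all names.

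The row piR_017723 took 0.0324%, 0.0305%, 0.0153%, 0.0304% and 0.0293% of EVs A to E before surgery and 0.219%, 0.0281% and 0.0377% of EVs D to F after. EVs D alone stood out, with 1040 counts, and EVs E and F lay within or just above the values before surgery. The log2 fold change was 2.84 (SE 0.856, edgeR), and 0.36 without EVs D after surgery. EVs D after surgery also held 19.5% of counts on the list of other fragment names, the highest of the EV libraries. EVs B before surgery held 16.9% on that list, with 0.0305% for piR_017723. A link between that list and piR_017723 was not tested. Serum D after surgery had the highest piR_017723 share in serum (0.114%).

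The row piR_001312 took 0.245%, 0.223%, 0.0733%, 0.120% and 0.276% of EVs A to E before surgery and 0.736%, 0.182% and 0.329% of EVs D to F after. EVs D and F lay above all EV libraries before surgery, and EVs E lay among them. The log2 fold change was 2.18 (SE 0.736), and 0.66 without EVs D. The row piR_018570 had 1.61 (SE 0.564) and piR_017724 had 2.22 (SE 0.779), and the lowest values with 1 library left out were 1.19 and 1.24. The row piR_017724 took 0.00442% to 0.0527% before surgery and 0.0930%, 0.0562% and 0.0409% in EVs D to F after, so EVs D and E lay above and EVs F among the earlier values.

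The 4 rows set apart above for higher shares in EVs than in serum under library totals had fitted values below 0 after surgery. They were chosen from ratios that hold these same EV libraries, most of them from before surgery, so this is no independent result. The fitted log2 fold changes in EVs were −0.66 (SE 0.625) for piR_019675, −0.73 (SE 0.819) for piR_001184, −0.74 (SE 0.613) for piR_015249 and −0.31 (SE 0.568) for piR_020485, each with an adjusted p of 0.999 (edgeR). The share of piR_019675 was 0.470%, 0.331%, 0.153%, 0.198% and 0.528% in EVs A to E before surgery and 0.0376%, 0.115% and 0.370% in EVs D to F after. The groups overlapped. Over the 16 fitted rows 10 lay above 0 (median 0.61, against −0.017 over all names), and under library totals 9 did (median 0.038, against −0.55).

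The change in EVs was then set against the change in serum. No piR row passed this test of the interaction (edgeR, 0 of 28 tested, among 0 of 1018 names, 0%). At an unadjusted p under 0.05, 2 of 28 piR rows had a higher change in EVs than in serum, where 4.91% of names had, and 0 a lower one. Without EVs D after surgery the direction turned, with 6 of 29 piR rows lower, where 7.69% of names were, and 1 higher. The EV libraries after surgery that then remain, E and F, are among those that share their zeros. Without serum D before surgery 5 of 28 piR rows were higher, where 4.39% of names were. The row piR_004987 had a log2 difference between the changes of 2.75 (SE 0.999, adjusted p = 0.443, edgeR), with 2.21 to 3.14 over the alternatives. The other was piR_020582, which was listed at 0 in all 5 EV libraries before surgery and had 16 counts in EVs D after it, so no fold is given. The next were piR_017724 (2.23, SE 1.09, adjusted p = 0.617) and piR_017723 (2.47, SE 1.26, adjusted p = 0.647, edgeR), and the latter was 0.033 without EVs D after surgery. DESeq2 called 3 names and limma-voom 0, with no piR row among them.

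The abundant rows moved with different names across the 16 libraries. The names most like piR_019914 were the lymphocyte-rich miR-150-5p (Pearson r = 0.85 and Spearman rho = 0.80 of log2 CPM, counts scaled to the library size) and miR-30d-5p (0.81 and 0.84). Among piR rows they were piR_004153 (0.87 and 0.89) and piR_018569 (0.87 and 0.91). The row piR_001312 was most like piR_018570 (0.89 and 0.91) and piR_015026 (0.80 and 0.82), and among miRNA names miR-760 (0.64 and 0.61) and miR-423-5p (0.64 and 0.69). The row piR_004987 was most like miR-1307-3p (0.70 and 0.65) and miR-6743-5p (0.62 and 0.62), and its closest piR row was piR_015026 (0.57 and 0.48). These values describe the 16 libraries, which share letters, totals and blocks of zeros, and they were chosen as the highest of many.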

How the data were processed

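The authors deposited whole-number counts per miRNA or piRNA name for 16 libraries. Per the labels' protocols, these were QIAseq miRNA libraries from 1 ng of RNA. The submitters' processing notes name bcl2fastq 2.20.0.422 and hg19, a human genome build. Which aligner, counter, annotation, filter or handling of molecular identifiers was used is not given in the sources used here. The piR sequences were not used here. Names were shortened to the part before the slash.

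Counts were fitted with edgeR's quasi-likelihood F test (edgeR 4.0.16, R 4.3.3, TMM factors, names kept by filterByExpr at a minimum count of 10, Benjamini-Hochberg adjustment over all names tested, threshold 0.05), on the compared groups only or on all 16 libraries for the interaction. The SE is the fold change divided by the root of F. Shares and ratios used library totals and were not tested. The fits other than the interaction were tested on simulated data, which held no shared zeros and no differences in make-up within a group. Alternatives used DESeq2 1.42.0, limma-voom (limma 3.58.1), other scalings and filters, and libraries left out. Likeness used a prior count of 2.

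Single fold changes are given for piR rows past the threshold and the 4 with the smallest p per comparison, except against EVs listed at 0. Other rows were named after their values were seen. The members, lists and tests were chosen with earlier results of these data known. Each p-value sets a difference against the spread between these libraries, which may be technical. The main fits treat libraries of the same letter as separate. Rows with near-identical sequences could share reads.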

Additional observations from a re-analysis of the deposited data

Results flagged for a closer look

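A library far from the rest of its group was looked for in 37 groups of 5 values, and 7 were found, where chance flags about 1 in 20 groups of normally distributed values, which skewed shares need not follow. In serum before surgery, piR_019675 took 0.669% in D against 0.0216% to 0.0937% in the others, and its EV-to-serum log2 ratio in D was −1.75 against 2.33 to 3.58. In the same group, piR_016742 took 0.0501% in E against 0.0145% to 0.0208%.

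In EVs before surgery, piR_004987 took 0.476% in A against 0.115% to 0.212%, and piR_017723 took 0.0153% in C against 0.0293% to 0.0324%. The rows piR_018569 and piR_019912 took 0.0141% and 0.0784% in D and were listed at 0 in the other 4, so that their gap fills the whole range by construction.

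Under library totals the EV-to-serum log2 ratio of piR_004987 was below 0 in all 5 pairs before surgery and above 0 in all 3 after. With TMM factors 1 pair before surgery was above 0 and 2 after it were below 0. The 30 rows together and the 13 rows above 0 in all libraries were searched for such a switch, and miRNA names were not. The means under library totals differed by 2.13. The difference of these ratios was not tested, and the edgeR interaction fit of the counts gave an adjusted p of 0.443 with TMM factors and 0.537 under library totals.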

How the results depend on the processing

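For EVs against serum before surgery, 54 of 768 names and 12 of 23 piR rows passed the threshold with DESeq2. With limma-voom 151 of 768 names and 14 of 23 piR rows did. With no filter it was 56 of 1104 and 4 of 29, and with all 16 libraries in 1 fit 57 of 1018 and 6 of 28. With a minimum count of 50, or among names above 0 in every compared library, 0 names passed. With the letter as a replicate block 0 names passed as well. With RLE factors 22 of 768 names and 1 of 23 piR rows passed, and under library totals 22 of 768 and 0 of 23. With the EV libraries outside the set of shared zeros left out, 135 of 813 names and 16 of 25 piR rows passed. That alternative was chosen after seeing the data. Leaving out each library in turn gave 26 to 89 names and 0 to 9 piR rows. For EVs against serum after surgery, 41 of 747 names and 0 of 24 piR rows passed with DESeq2. With limma-voom 42 of 747 names and 3 of 24 piR rows did. Leaving out each library gave 0 to 251 names, with 251 without serum D, and 0 piR rows. With no filter 2 names passed in serum after against before surgery. In the interaction 3 names passed with DESeq2 and 0 to 6 with each library left out. The mean piR share in EVs before surgery was 1.53% without piR_019914, and the mean log2 EV-to-serum ratio before surgery was −2.23 with TMM factors. The causes were not tested. Alternatives were run for the fold changes of the 4 piR rows with the smallest p in each comparison, and none of these reversed its sign. Among same-letter libraries the correlation of deviations from the group mean ran from −0.17 to 0.69. This does not settle whether the letters pair the libraries, and the main fits treat the libraries as separate. Depth limits rows with few counts, and zeros shared between libraries carry no limit of detection.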
